A study of Rattus norvegicus with 418 samples.

Results

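The transcripts of 4 zinc-handling genes, Mt2A, Slc30a1, Slc39a14 and Mtf1, were followed through 8 chemical liver injuries. They were chosen by gene symbol, as 4 of the 14217 genes with a probe set naming 1 gene on an Affymetrix rat expression array, and each was read from its probe set with the highest mean signal. Each array held the left lateral liver lobe of 1 male F344/N rat aged 10 to 12 weeks, fasted for 12 to 18 h before a single exposure, and 318 dosed and 100 vehicle rats formed 98 groups by compound, dose and time. Rats were killed 6, 24 or 48 h after exposure, and a necrosis score from 0 to 4 was labelled for each of them.

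For 6 of the compounds the route was gavage, with corn oil as the vehicle. 1,2-Dichlorobenzene and 1,4-dichlorobenzene, positional isomers of a chlorinated benzene, were given at 15, 150 and 1500 mg/kg, and bromobenzene at 25, 75 and 250 mg/kg. N-Nitrosomorpholine was given at 10, 50 and 300 mg/kg and thioacetamide at 15, 50 and 150 mg/kg. Monocrotaline, a plant pyrrolizidine alkaloid, was given at 10, 50 and 300 mg/kg for 6 h, at doses labelled 10, 30 and 50 mg/kg for 24 h and at 10 and 50 mg/kg for 48 h. Diquat dibromide (5, 10, 20 and 25 mg/kg) and galactosamine (25, 100 and 400 mg/kg) were injected into the peritoneal cavity, with phosphate-buffered saline as the vehicle. Groups held 4 rats, except that diquat groups held 6 and that the thioacetamide vehicle group at 6 h and the 1,2-dichlorobenzene group at 1500 mg/kg and 48 h held 2. All values below are log2 array signals on which 1 unit is a doubling, changes are dosed minus vehicle of the same compound and time (± SE), and a change was called at an adjusted p under 0.05 in limma.

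Zinc is an essential metal that is toxic in excess, and cells hold its free concentration very low. Metallothioneins are small cysteine-rich proteins that bind zinc, copper and cadmium and also react with oxidants. Mtf1 encodes the zinc-sensing transcription factor that binds metal response elements, short promoter motifs found in metallothionein genes and in Slc30a1. Slc30a1 encodes ZnT1, the zinc exporter of the plasma membrane. Slc39a14 encodes ZIP14, an importer of zinc, manganese and non-transferrin-bound iron that is known in rodent liver for its induction by interleukin-6. Hepatic metallothionein is itself known as an acute phase product, induced by interleukin-6 and glucocorticoids as well as by metals, and by fasting.

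On the rat assembly GRCr8, Mt2A lies at chr19:10837934-10838708, Slc30a1 at chr13:106022019-106025892, Slc39a14 at chr15:51786517-51833260 and Mtf1 at chr5:142347024-142391810. The RefSeq promoter table matched 3 of the 4 genes, Slc39a14 being the exception. The 250 bases before each start site are printed because 3 of the genes carry the motif by which metals reach Mt2A, with the core of the metal response element (TGCACNC or TGCGCNC on either strand) in capitals. The windows lie at chr19:10838709-10838958 on the minus strand, chr13:106021769-106022018 on the plus strand and chr5:142346804-142347053 on the plus strand. The last bases of the Mtf1 window lie inside the Mtf1 span given above, because the start site of its promoter entry falls within that span.
Mt2A: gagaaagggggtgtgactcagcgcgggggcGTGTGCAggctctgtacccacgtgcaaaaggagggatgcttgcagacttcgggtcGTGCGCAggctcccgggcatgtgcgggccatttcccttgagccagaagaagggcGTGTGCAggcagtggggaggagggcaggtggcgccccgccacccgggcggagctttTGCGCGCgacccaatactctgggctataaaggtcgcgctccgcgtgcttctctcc
Slc30a1: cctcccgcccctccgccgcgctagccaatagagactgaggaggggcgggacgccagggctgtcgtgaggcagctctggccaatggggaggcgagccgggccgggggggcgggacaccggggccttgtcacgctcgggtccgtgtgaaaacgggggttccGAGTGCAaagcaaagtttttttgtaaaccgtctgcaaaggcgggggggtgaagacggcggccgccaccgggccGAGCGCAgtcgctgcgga
Mtf1: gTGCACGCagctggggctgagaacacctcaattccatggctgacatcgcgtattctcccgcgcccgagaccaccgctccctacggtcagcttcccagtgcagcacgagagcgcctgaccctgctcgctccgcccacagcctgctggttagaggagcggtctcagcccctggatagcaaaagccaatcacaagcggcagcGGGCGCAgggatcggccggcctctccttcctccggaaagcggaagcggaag

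The Mt2A promoter held 4 matches to the element core, which began 220, 165, 111 and 55 bases before the start, and the first 3 of these ran on the opposite strand. Among all promoters of that table, searched over 300 bases (250 before the start to 50 after it), 147 or 0.439% held at least 4 matches. Slc30a1 and Mtf1 each held 2, where 6.36% of promoters held at least 2 and 24.2% at least 1. The letters of the antioxidant response element core (TGACNNNGC), the motif of the oxidant-responsive factor NRF2, occurred once in Mt2A and once in Slc30a1 and 2 times in Mtf1, against 12.1% of promoters with at least 1. The STAT palindrome TTCNNNGAA, the form bound by the transcription factor downstream of interleukin-6, occurred in 0 of the 3 windows and in 8.87% of promoters. The first bases of the Mt2A antioxidant match lie 237 bases before the start, beside the farthest metal element, and no motif overlapped another in that promoter. These matches describe letters only, and binding was not measured.

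In vehicle rats Mt2A differed widely with the hour. It was 3.07 ± 0.175 lower at 24 h than at 6 h (adjusted p = 7.25e-30, limma with compound as a block over 100 vehicle rats), an interval over which 32.5% of all genes differed. Between 24 and 48 h it differed by -0.12 ± 0.172 (adjusted p = 0.714). The 6 h vehicle groups were also far apart, with means from 11.9 for N-nitrosomorpholine and 11.97 for thioacetamide through 12.31 for bromobenzene, 12.39 for galactosamine, 12.4 for monocrotaline and 13.15 for 1,4-dichlorobenzene to 14.02 for diquat and 14.49 for 1,2-dichlorobenzene. At 24 h the 8 vehicle means lay between 9.42 and 10.44, and at 48 h between 9.23 and 10.22. Diquat vehicle rats at 6 h ranged from 11.95 to 15.11 within 1 group, which spans all but 1 of the 8 vehicle means of this hour.

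The drop after 6 h was present with both vehicles. It was -2.97 in corn oil rats and -3.31 in rats injected with saline. Of 34 vehicle rats at 24 h and 34 at 48 h, 0 reached a signal of 14, whereas 8 of 32 did at 6 h. The other members moved the same way by less, Slc39a14 by -0.39 ± 0.06 (adjusted p = 3.28e-08), Mtf1 by -0.29 ± 0.042 (6.79e-09) and Slc30a1 by -0.26 ± 0.10 (0.0395). In saline rats alone the Mtf1 difference was -0.14 (adjusted p = 0.182) and that of Slc30a1 -0.01 (0.984), and with centring on array medians the Slc30a1 difference was -0.19 (0.186).

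**Figure D1:**
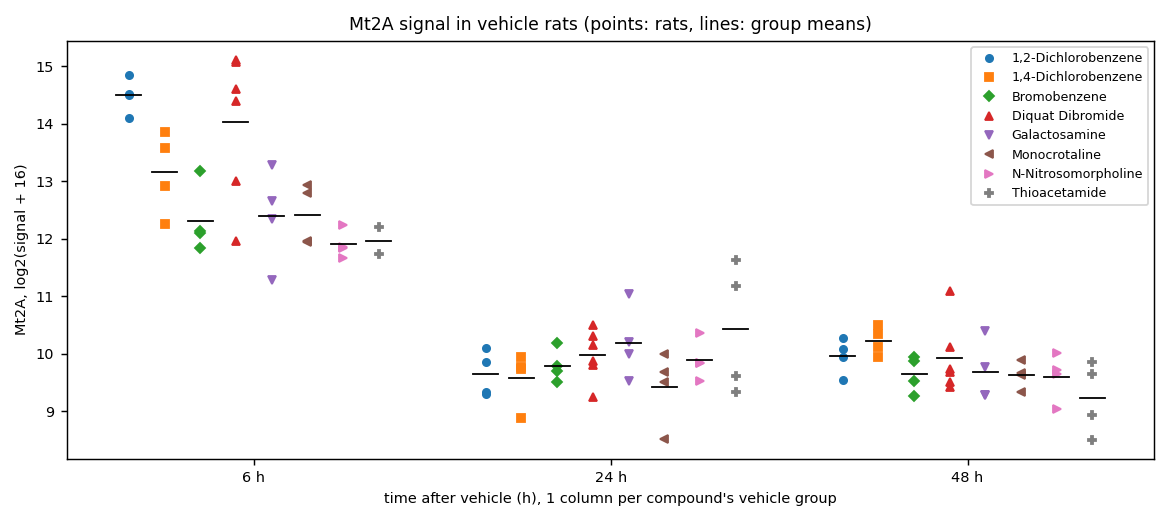
Mt2A in the 100 vehicle rats, as log2 signal on the vertical axis, by compound and hour after exposure; each point is 1 rat and the bars mark group means. At 6 h the means ran from 11.9 to 14.49, and at 24 and 48 h all group means lay between 9.23 and 10.44.

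A list of 8 genes known to be induced by glucocorticoids and their receptor Nr3c1 differed over the same interval in both directions, with 6 of the 9 lower and 2 higher at 24 h than at 6 h, Nr3c1 (0.44) being one of the higher. Per1, a clock gene with glucocorticoid response elements, was lower by 0.95 on the log2 scale (change -0.95), and Fkbp5 changed by -0.66, Tsc22d3 by -0.45 and Dusp1 by -0.58. Sgk1, a kinase that corticosteroids induce, moved the other way by 1.58. Of the interleukin-6 and acute phase list 6 of 11 genes were lower and 1 higher, including Stat3 (-0.73), the transcription factor of this pathway, and its feedback inhibitor Socs3 (-0.77). Their part in the Mt2A drop was not tested, and all later values are differences from vehicle rats of the same hour.

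Across the 74 dosed groups Mt2A was called higher in 23 and lower in 1, with a median change of 0.60 and a range from -1.08 to 6.02. Over all genes and contrasts 8.76% of tests were called higher and 6.9% lower, and 849 of 14217 genes were called higher in at least 23 groups. At 6 h Mt2A was called higher in 4 of 25 groups and lower in 1, where 6.59% of tests over all genes were higher and 7.31% lower. At 24 h it was higher in 12 of 25 groups, against 11% higher and 8% lower over all genes, and at 48 h in 7 of 24, against 8.64% and 5.34%. The median Mt2A change was 0.07 at 6 h, 1.14 at 24 h and 0.62 at 48 h. Dosed groups of 1 compound and hour share their vehicle rats, so the 74 groups are not independent.

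Mt2A was called higher with every compound in at least 1 group, with thioacetamide in 6, bromobenzene and monocrotaline in 4 each, 1,2-dichlorobenzene in 3, N-nitrosomorpholine and diquat in 2 each, and 1,4-dichlorobenzene and galactosamine in 1 each. Of the 23 rises 18 were at least 2 log2 units and 6 at least 4. The lowest dose of a compound gave 0 calls in 24 groups, with Mt2A changes from -0.89 to 0.99, while the highest dose exceeded the lowest in 19 of 24 tests of that difference. Over all genes 28.1% of these dose differences were called. In 1,4-dichlorobenzene rats at 6 h Mt2A was 1.59 ± 0.373 higher at 1500 than at 15 mg/kg (adjusted p = 0.00556), although neither dose was called against vehicle.

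**Figure D2:**
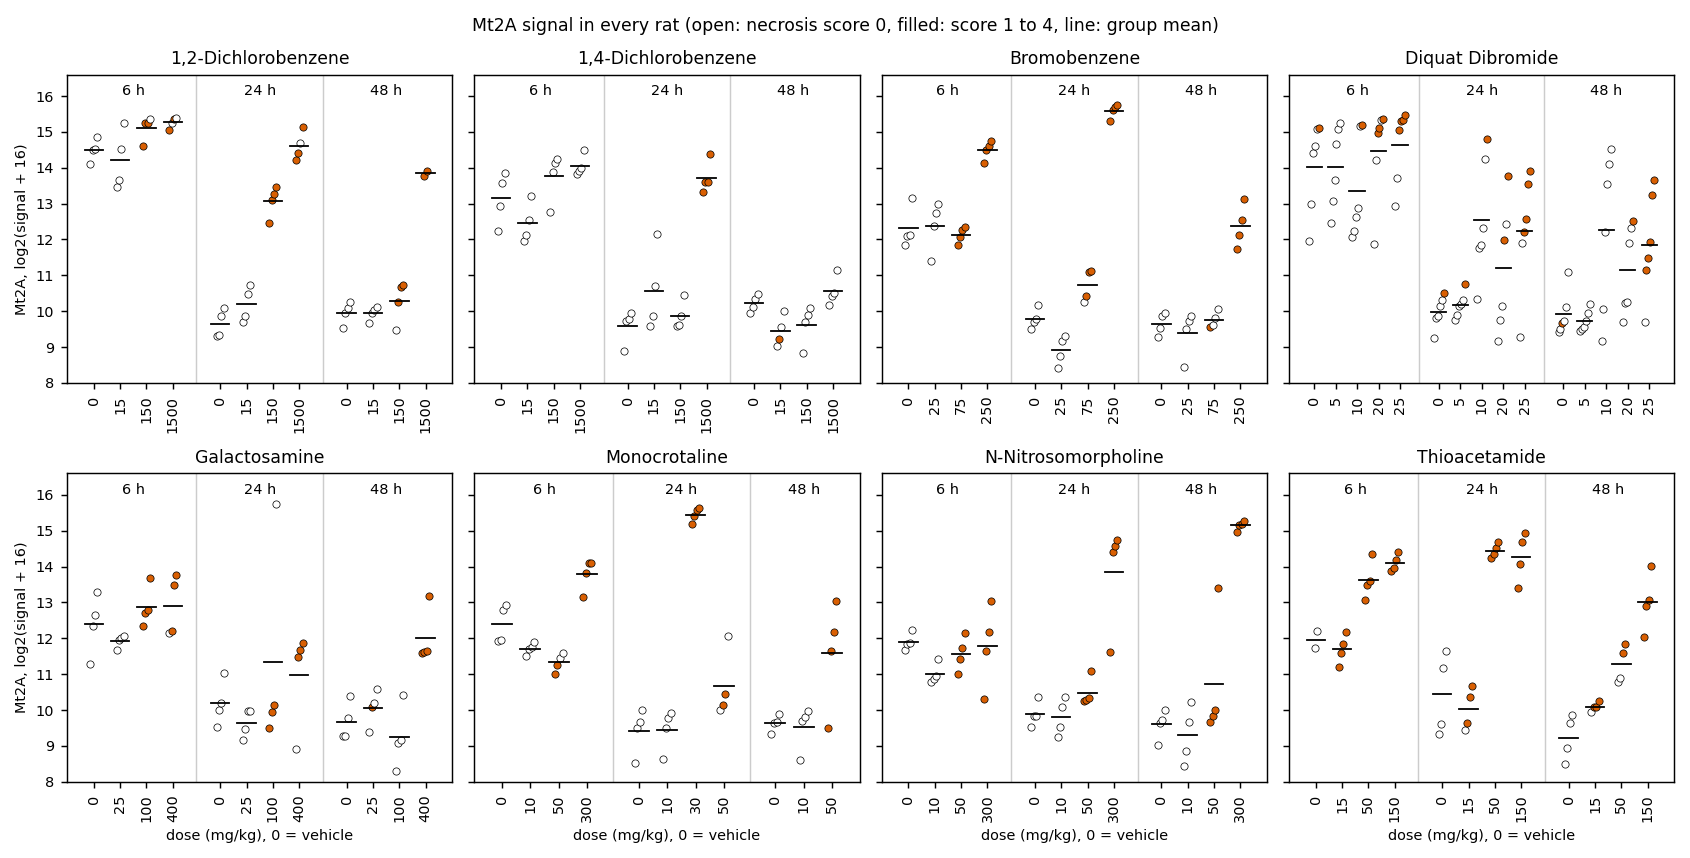
Mt2A log2 signal of every rat, by compound, hour and dose; each point is 1 rat and vehicle rats stand at dose 0. At 24 h all rats of bromobenzene at 250 mg/kg and of monocrotaline labelled 30 mg/kg lay at 15.18 or above, while vehicle rats at that hour stayed under 14.

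The highest Mt2A change of the series was in monocrotaline rats labelled 30 mg/kg at 24 h. The 4 dosed rats had 15.18, 15.40, 15.58 and 15.63 and the 4 vehicle rats 8.51, 9.50, 9.68 and 10.00, so every dosed rat lay far above every vehicle rat. The change was 6.02 ± 0.42, or 65.1-fold (adjusted p = 6.11e-16), where 43.6% of all genes were called. All 4 of these rats had a necrosis score of 4. Rats labelled 50 mg/kg at the same hour had 9.99, 10.15, 10.45 and 12.06 and a change of 1.24 (adjusted p = 0.0497; 11.3% of genes called), so the labelled doses and the responses ran in opposite orders. Whether the label of 30 mg/kg gives the dose used was not tested. Without the rat at 12.06 the change at 50 mg/kg was 0.78 (adjusted p = 0.229), and the call was lost on leaving out any of 5 of its 8 rats and with day as a block (1.69, 0.376).

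At 6 h monocrotaline moved Mt2A in both directions. At 50 mg/kg the dosed rats had 11.01, 11.26, 11.46 and 11.59 against 11.94, 11.96, 12.79 and 12.94 in vehicle, a change of -1.08 ± 0.42 (adjusted p = 0.0437; 35.2% of genes called) and the single decrease of Mt2A. This call was lost with centring on array medians and with all arrays in 1 fit. It was also lost with hybridisation day as a random block (-0.997, adjusted p = 0.135). Leaving out any of 4 of its 8 rats lost it too (adjusted p up to 0.153). A fit with day as a fixed block, meant elsewhere by day as a block, was not possible for this group. At 300 mg/kg the rats had 13.14, 13.81, 14.10 and 14.10 and Mt2A rose by 1.38 (adjusted p = 0.00782; 38.3% called). At 48 h 50 mg/kg gave 9.50, 11.65, 12.17 and 13.05 against 9.33 to 9.89 in vehicle, a rise of 1.96 (adjusted p = 0.00145; 9.29% called) with 1 rat among the vehicle values.

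Bromobenzene, which liver oxidases convert to a glutathione-depleting epoxide, gave the next highest value. At 250 mg/kg and 24 h the rats had 15.29, 15.62, 15.70 and 15.76 against 9.50, 9.70, 9.79 and 10.18 in vehicle. The change was 5.80 ± 0.29, 55.7-fold (adjusted p = 1.03e-21; 39.5% of genes called), and 15.76 was the highest Mt2A signal of all rats. The same dose already raised it by 2.18 at 6 h (14.12 to 14.74 against 11.84 to 13.17, adjusted p = 1.53e-07; 16% called) and still by 2.73 at 48 h (11.73, 12.11, 12.56 and 13.12 against 9.27 to 9.94, adjusted p = 1.07e-10; 36.1% called). The 24 h change exceeded that at 6 h by 3.62 (28.7% of genes differed in this way) and that at 48 h by 3.07 (difference -3.07, 48 minus 24 h; 19.3%). At 75 mg/kg and 24 h the rats had 10.25, 10.42, 11.09 and 11.11 and Mt2A rose by 0.93 (adjusted p = 0.0179; 18.4% called), the smallest of its called rises and lost on leaving out any of 3 of its 8 rats (adjusted p up to 0.0904) and with day as a block (1.18, 0.415).

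N-Nitrosomorpholine, an alkylating hepatocarcinogen, gave its largest Mt2A change at 48 h, the last hour sampled. At 300 mg/kg Mt2A changed by -0.11 at 6 h and was not called, where 37.3% of all genes were. At 24 h the rats had 11.62, 14.40, 14.58 and 14.75 against 9.53, 9.83, 9.83 and 10.36 in vehicle, a rise of 3.95 ± 0.54 (adjusted p = 2.37e-08; 46.2% called) in which 1 rat lay well below the other 3. At 48 h the rats had 14.97, 15.16, 15.19 and 15.29 against 9.03 to 10.01, a rise of 5.55 ± 0.54, 47-fold (adjusted p = 2.49e-12; 49.4% called). The 24 h change exceeded that at 6 h by 4.06 (28.7% of genes differed), and the further step to 48 h was not called.

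Thioacetamide raised Mt2A at both upper doses at every hour. At 6 h the vehicle group held only 2 rats (11.74 and 12.20), and Mt2A rose by 1.66 at 50 mg/kg (13.06 to 14.36, adjusted p = 0.008, and 0.112 without 1 rat; 21.4% of genes called) and by 2.14 at 150 mg/kg (13.86 to 14.41, adjusted p = 0.000642; 21% called). At 24 h rats at 50 mg/kg had 14.23, 14.36, 14.51 and 14.68 and rats at 150 mg/kg 13.41, 14.07, 14.68 and 14.94, against 9.33, 9.60, 11.18 and 11.64 in vehicle. The rises were 4.01 ± 0.39 (16.1-fold, adjusted p = 6.95e-12; 46.5% called) and 3.84 (1.18e-11; 53% called), and the values at the 2 doses overlapped. At 48 h they separated, with 2.04 at 50 mg/kg (1.80e-05, and 0.128 with day as a block; 47% called) and 3.77 at 150 mg/kg (1.63e-11; 57.5% called; 12.03, 12.90, 13.06 and 14.03 against 8.51 to 9.86). The 24 h change at 150 mg/kg exceeded that at 6 h by 1.70, a difference that 36.3% of genes showed. Meanwhile the vehicle mean was 11.97 at 6 h and 10.44 at 24 h.

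The dichlorobenzenes differ only in where their chlorine atoms sit on the ring, next to each other or opposite. In 1,2-dichlorobenzene rats at 24 h Mt2A rose at 150 mg/kg (12.45, 13.10, 13.28 and 13.47, change 3.43, 10.7-fold, adjusted p = 1.58e-12; 23.5% of genes called). It rose further at 1500 mg/kg (14.23, 14.41, 14.68 and 15.12, change 4.96 ± 0.28, 31.2-fold, 1.39e-18; 43.3% called), against 9.31, 9.34, 9.85 and 10.10 in vehicle. At 48 h the 2 rats at 1500 mg/kg had 13.77 and 13.91 against 9.54 to 10.27, a rise of 3.88 ± 0.35 (14.7-fold, 3.91e-12; 30.4% called). At 6 h the rats at this dose had 15.06 to 15.39, among the highest Mt2A signals of the series, but the vehicle rats of that hour had 14.10 to 14.85 and the change of 0.77 was not called. The change at 24 h exceeded that at 6 h by 4.19 (26.4% of genes called), while the vehicle mean was 14.49 at 6 h and 9.65 at 24 h.

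In 1,4-dichlorobenzene rats the only called rise of Mt2A was at 1500 mg/kg and 24 h. Those rats had 13.31, 13.61, 13.61 and 14.37 against 8.88, 9.73, 9.78 and 9.95, a change of 4.14 ± 0.37, 17.7-fold (adjusted p = 1.05e-12; 33.4% of genes called). At 48 h the rats had 10.16, 10.44, 10.49 and 11.14 against 9.95 to 10.49 in vehicle, a change of 0.34 that was not called. The 24 h change exceeded that at 6 h by 3.24 (25.5% of genes called) and fell by 3.81 to 48 h (21.3%), the larger of the 2 called drops of a Mt2A change. Over these hours the vehicle mean was 13.15 at 6 h, 9.58 at 24 h and 10.22 at 48 h.

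At matched doses and hours 36 differences between the isomers were tested, 9 for each gene, and 5 were called. Mt2A was 3.13 ± 0.49 higher with 1,2-dichlorobenzene at 150 mg/kg and 24 h (95% interval 2.16 to 4.10, adjusted p = 1.05e-06 over all genes; 15.2% of genes called). With hybridisation day as a block this difference was 2.62 and was not called (adjusted p = 0.216). It was 3.54 ± 0.55 higher at 1500 mg/kg and 48 h (2.46 to 4.63, adjusted p = 4.09e-07; 20.2% called). At 1500 mg/kg and 24 h, where both isomers raised it, the difference was 0.82 with an interval from -0.15 to 1.79, and at 6 h it was -0.13 (-1.10 to 0.85). Mtf1 was 1.33 ± 0.17 higher with the 1,2 isomer at 1500 mg/kg and 24 h (0.98 to 1.67, adjusted p = 4.50e-09; 21.2% called), 0.53 higher at 150 mg/kg and 24 h (0.18 to 0.87, 0.0278) and 0.52 higher at 1500 mg/kg and 48 h (0.14 to 0.91, 0.0446). Both of these smaller Mtf1 differences were lost when 1 vehicle rat of each isomer was left out, reaching 0.39 (adjusted p = 0.17) and 0.48 (0.103). Neither was called with centring on array medians (0.35 and 0.40, adjusted p = 0.267 and 0.215) or with quantile normalization, and with day as a block the first was 0.33 (0.548). No Mtf1 difference between the isomers was tested with its other probe sets. For Slc30a1 and Slc39a14 none was called, with 9 intervals each that reached at most 1.38 from 0 for Slc30a1 and -0.96 for Slc39a14. The Slc39a14 intervals at 150 mg/kg and 6 h (-0.90 to -0.05) and at 1500 mg/kg and 48 h (-0.96 to -0.01) lay below 0, with adjusted p of 0.158 and 0.151. The isomers were hybridised on different days, so each difference is between their 2 contrasts with vehicle. Subtracting vehicle does not by itself remove day. At the doses and hours of the 5 calls, 1,4-dichlorobenzene dosed rats shared no hybridisation day with their vehicle rats.

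**Figure D3:**
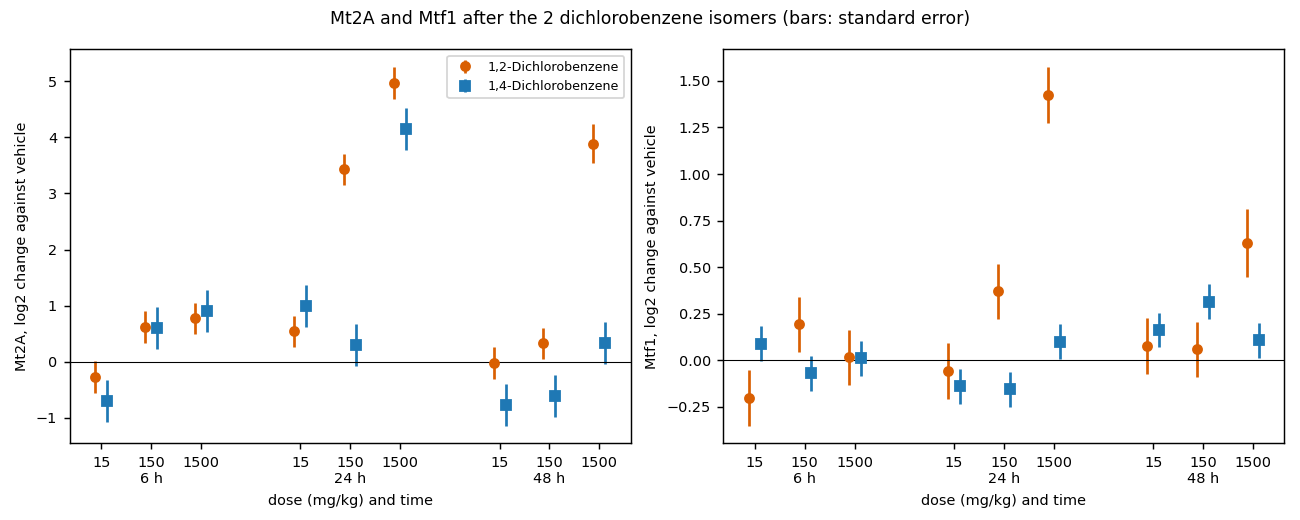
Change of Mt2A and of Mtf1 against vehicle (log2 units) after each dichlorobenzene isomer, at 3 doses and 3 times. Points are changes and bars standard errors. At 150 mg/kg and 24 h the Mt2A change was 3.43 with 1,2-dichlorobenzene and 0.30 with 1,4-dichlorobenzene. At 1500 mg/kg and 48 h it was 3.88 and 0.34.

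Galactosamine, which depletes uridine nucleotides in hepatocytes, and diquat, a redox-cycling herbicide, gave the most uneven responses. Galactosamine at 400 mg/kg and 48 h gave 11.59, 11.62, 11.63 and 13.18 against 9.28, 9.29, 9.77 and 10.39, a rise of 2.33 ± 0.73 (adjusted p = 0.00743; 46.4% of genes called), or 2.01 and not called with day as a block (0.415). At 24 h the same dose gave 8.92, 11.48, 11.67 and 11.87 against 9.52 to 11.04 and was not called (0.80, adjusted p = 0.436; 36.4% of genes called). At 100 mg/kg and 24 h 1 rat reached 15.75 while its 3 group mates had 9.50, 9.93 and 10.15.

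Diquat groups held 6 rats and still spread over several units. At 24 h Mt2A rose by 2.58 ± 0.73 at 10 mg/kg (10.33, 12.09 and 14.81 as lowest, median and highest, adjusted p = 0.0282; 3.43% of genes called) and by 2.26 at 25 mg/kg (9.28, 12.38 and 13.92 as lowest, median and highest, adjusted p = 0.018; 21.7% called), against 9.24 to 10.50 in vehicle. Each of these calls was lost on leaving out single rats, any of 4 of 12 at 10 mg/kg (adjusted p up to 0.128) and any of 2 of 12 at 25 mg/kg (up to 0.0693). With day as a block the changes were 1.26 and 0.70 and neither was called (0.907 and 0.853). Between these doses, 20 mg/kg gave 1.23 and was not called (adjusted p = 0.38). At 48 h the changes of 2.35 at 10 mg/kg and 1.93 at 25 mg/kg were not called either (adjusted p = 0.164 and 0.0835), with rats at 10 mg/kg from 9.16 to 14.53. The SE of a diquat change was 0.73, against 0.28 to 0.29 for 1,2-dichlorobenzene and bromobenzene groups of 4.

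**Figure D4:**
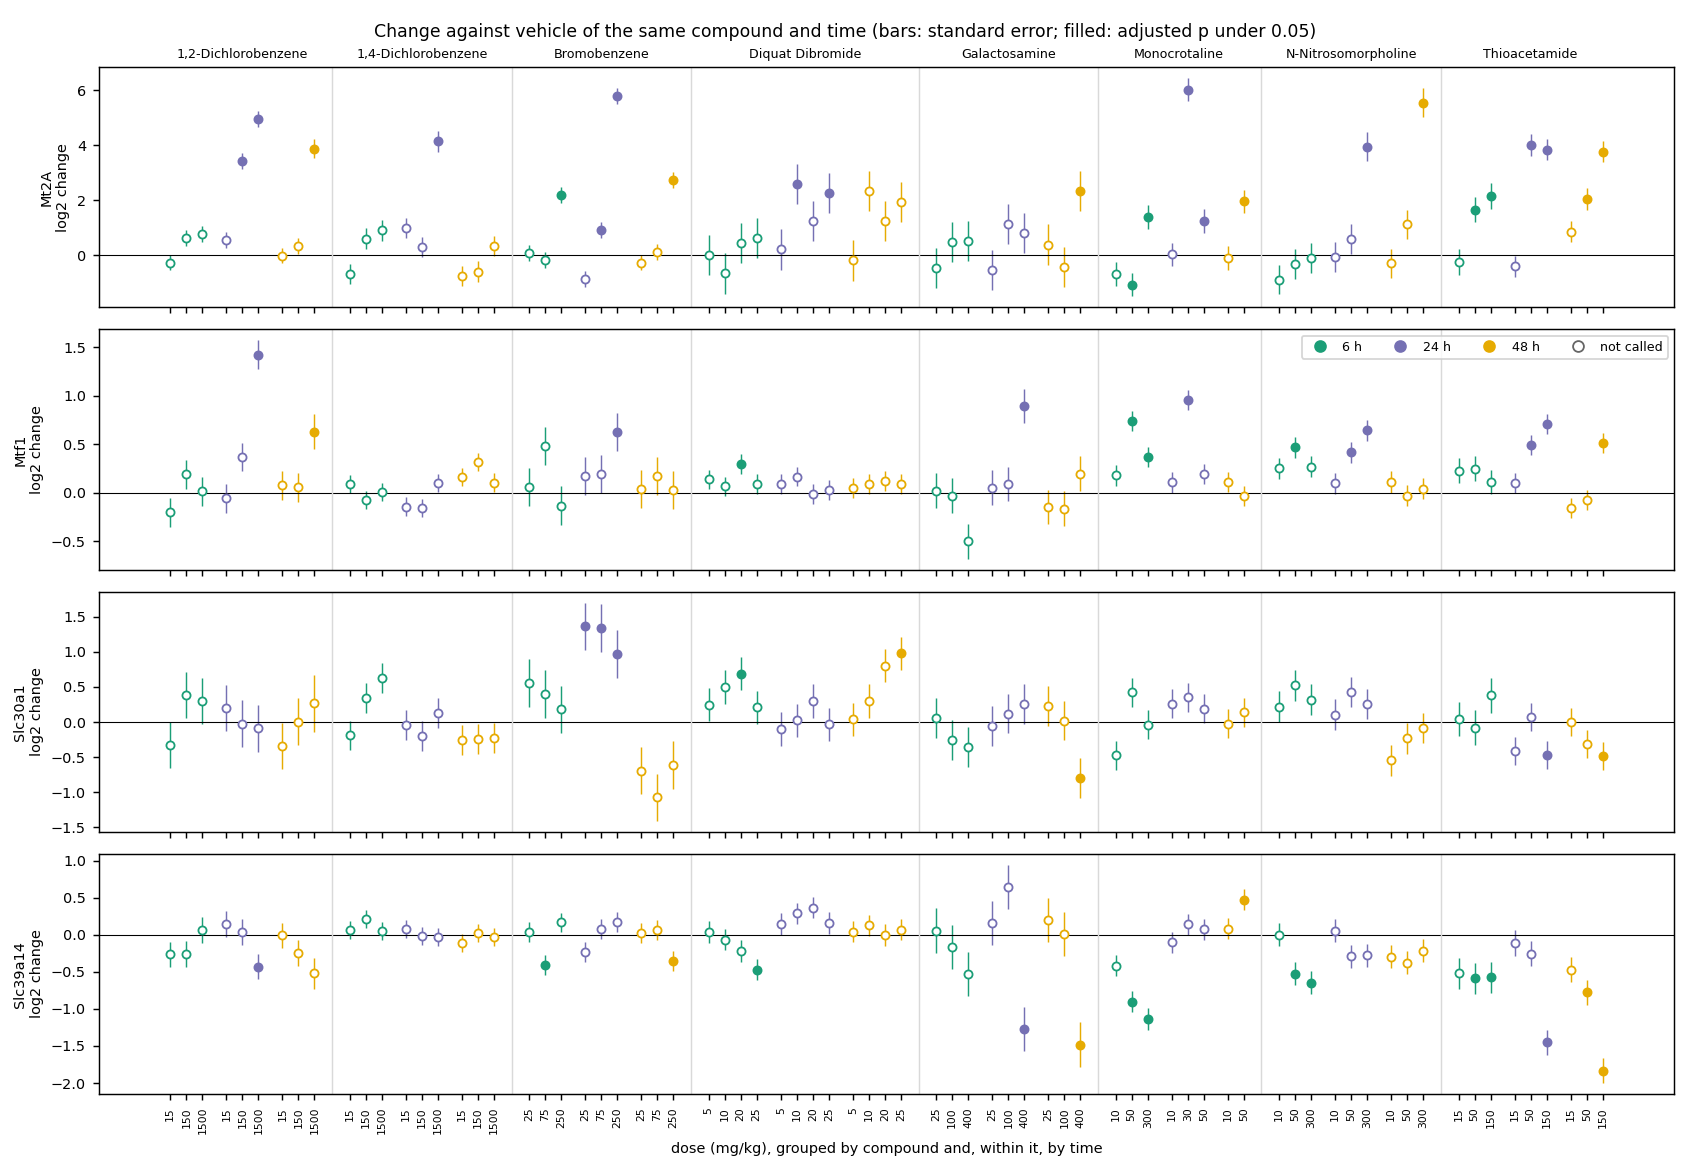
Change of each of the 4 genes in the 74 dosed groups (dosed minus vehicle, log2 units), by compound, dose and time, with called changes marked. Mt2A was called higher in 23 groups, Mtf1 in 14 and Slc30a1 in 5, and Slc39a14 was called lower in 15.

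Within groups of the same compound, dose and hour, rats with scored necrosis had more Mt2A than rats without it. The difference was 0.80 ± 0.169 (adjusted p = 3.5e-05) over the 28 groups that held both classes, with 63 necrotic among 136 rats, and 31% of all genes were called in this test. It rested on diquat rats, being 1.71 within diquat (adjusted p = 9.94e-06) and -0.05 (adjusted p = 0.922) over the other compounds. At 25 mg/kg and 24 h the 4 necrotic diquat rats had 12.20 to 13.92 and the 2 without necrosis 9.28 and 11.91. At 48 h 5 necrotic rats had 11.14 to 13.67 and the sixth 9.69. At 10 mg/kg and 48 h, however, all 6 rats were scored free of necrosis and ranged from 9.16 to 14.53.

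Slc39a14 was 0.13 ± 0.05 lower in the necrotic rats (adjusted p = 0.0426), and this call was lost without galactosamine (-0.01) or without 1,4-dichlorobenzene (-0.12, adjusted p = 0.0716). Slc30a1 and Mtf1 differed by 0.06 and -0.02 and were not called. Between groups, the correlation of the Mt2A change with the mean necrosis score was 0.478 over 25 groups at 6 h, 0.81 over 25 at 24 h and 0.854 over 24 at 48 h. As many as 726 genes at 24 h and 411 at 48 h had a correlation at least as high, and groups that share vehicle rats are no independent points. For Mtf1 it was 0.673 at 24 h and 0.405 at 48 h, and for Slc39a14 it was negative at each hour (-0.468, -0.393 and -0.606). At 48 h 4995 of 14217 genes had a correlation at least as high as that of Mtf1, whose Spearman rank correlation there was 0.02.

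Neutrophil genes moved with the largest Mt2A rises. In the bromobenzene, monocrotaline and N-nitrosomorpholine groups with changes above 5, all 6 measured neutrophil markers were called higher. Over all genes 23.5%, 25.8% and 30.1% were called higher in these 3 groups. The summed linear signal of these markers of neutrophils was 34890 to 54260 in bromobenzene rats at 250 mg/kg and 24 h against 455.6 to 656.6 in vehicle, a median of 38880 and up to 68350 against 348.4 to 543.9 in monocrotaline rats labelled 30 mg/kg, and 39910 to 48910 against 265.4 to 460.4 in N-nitrosomorpholine rats at 300 mg/kg and 48 h. The interleukin-6 and acute phase list rose with the neutrophil markers, 9 of 11 genes in the first group, 9 in the second and 7 in the third. Lcn2, a neutrophil and acute phase protein that is counted in both lists, changed by 6.05 ± 0.54 and Stat3 by 1.95 ± 0.20 in the bromobenzene group.

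The 1,4-dichlorobenzene rats at 1500 mg/kg and 24 h were different. With Mt2A 17.7-fold higher, 0 of 6 neutrophil markers were called, with a summed signal for neutrophils of 187.9 to 373.9 against 170.7 to 414 in vehicle. Of the acute phase list 1 gene was called higher and 5 lower, Stat3 by -0.90 ± 0.24 among the latter. Of the 9 genes of the glucocorticoid list 0 were called higher and 5 lower. Over all genes 18.6% were called higher and 14.7% lower in this group. In 1,2-dichlorobenzene rats at the same dose and hour 2 of 6 neutrophil markers were called higher, beside 22.3% of all genes. Their summed signal was 311.6 to 42020 (median 475.1) against 246 to 345.5 in vehicle, while all 4 Mt2A values were high (14.23 to 15.12). Fewer cells of a type and less RNA per cell cannot be told apart in whole liver, and the part of infiltrating cells in the Mt2A values was not tested.

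Mtf1, the zinc sensor, was called higher in 14 of 74 groups and lower in 0, with smaller changes than Mt2A (13 of the 14 under 1 unit). Over all genes and contrasts 8.76% of tests were called higher, and 2658 of 14217 genes were called higher at least as often as Mtf1. By hour Mtf1 was higher in 4 of 25 groups at 6 h, 8 of 25 at 24 h and 2 of 24 at 48 h. The shares over all genes at these hours were 6.59%, 11% and 8.64%. The largest rise was with 1,2-dichlorobenzene at 1500 mg/kg and 24 h, where the rats had 10.60, 11.03, 11.10 and 11.26 against 9.23, 9.57, 9.74 and 9.75 (1.42 ± 0.15, adjusted p = 6.68e-11). By 1 other Mtf1 probe set this change was 0.04 (adjusted p = 0.933), while the remaining set kept the call. At 48 h the 2 rats had 9.98 and 10.43 and the change was 0.63 ± 0.18 (0.0061), or 0.40 (adjusted p = 0.256) without the higher of them. The change was larger at 24 h than at 6 h by 1.41 and than at 48 h by 0.79 (difference -0.79, 48 minus 24 h). The other isomer at 1500 mg/kg and 24 h left it at 9.49, 9.59, 9.93 and 9.98 against 9.60 to 9.72, a change of 0.10 that was not called, beside a 17.7-fold rise of Mt2A.

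The next Mtf1 rises were in monocrotaline rats labelled 30 mg/kg at 24 h (10.42, 10.43, 10.46 and 10.88 against 9.49 to 9.70, 0.96 ± 0.10, adjusted p = 1.79e-10) and in galactosamine rats at 400 mg/kg and 24 h (10.02, 10.36, 10.81 and 10.92 against 9.44 to 9.80, 0.89 ± 0.18, 0.000104). In both groups all dosed rats lay above all vehicle rats. By 1 other probe set the galactosamine rise was 0.27 (adjusted p = 0.451), and by the remaining set the monocrotaline rise was 0.49 (0.46). Mtf1 also rose at 6 h in monocrotaline rats at 50 mg/kg (10.34, 10.62, 10.62 and 10.72 against 9.65 to 9.95, 0.74 ± 0.10, 1.47e-07), the group in which Mt2A was lower. Thioacetamide raised it at 24 h by 0.49 at 50 mg/kg and 0.71 at 150 mg/kg and at 48 h by 0.51 at 150 mg/kg. The remaining called rises were 0.63 for bromobenzene at 250 mg/kg and 24 h, 0.64 and 0.42 for N-nitrosomorpholine at 300 and 50 mg/kg and 24 h, 0.47 at 50 mg/kg and 6 h (33.3% of all genes called), 0.37 for monocrotaline at 300 mg/kg and 6 h and 0.30 for diquat at 20 mg/kg and 6 h, which was lost on leaving out any of 7 of its 12 rats (adjusted p up to 0.221). With day as a block the rises with N-nitrosomorpholine at 50 mg/kg at both hours and with thioacetamide at 50 mg/kg were not called (adjusted p = 0.434, 0.051 and 0.0513).

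The Mtf1 result depended on the probe set. The 3 sets naming Mtf1 correlated at 0.347 and 0.579 over the 74 changes with the brightest, which was the one used, and had its sign in 38 and 40 of 74 groups. The first of these was called higher in 3 and lower in 2 groups, the second higher in 6 and lower in 1. Of the 14 rises called with the brightest set, 3 kept their call with the first and 5 with the second. With the mean of the 3 sets 8 groups were called higher and 1 lower. Mt2A and Slc30a1 had 1 probe set each, so no such comparison exists for them.

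Slc39a14, the ZIP14 importer, was called more often lower than higher. It was called lower in 15 of 74 groups, 8 of 25 at 6 h, 3 of 25 at 24 h and 4 of 24 at 48 h, and higher in 1, against the 6.9% and 8.76% of tests called over all genes. By hour 7.31%, 8% and 5.34% of tests over all genes were called lower. The median change of Slc39a14 was -0.03, and 33 of its 74 changes were positive. At least as many lower calls were made for 1870 genes. The highest dose lay below the lowest dose in 9 of 24 tests and above it in 1. Of the 15 decreases 10 were under 1 unit.

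The largest decrease of Slc39a14 was with thioacetamide. At 150 mg/kg and 48 h the rats had 9.72, 10.00, 10.37 and 10.57 against 11.87, 11.96, 12.03 and 12.13 (-1.83 ± 0.17, adjusted p = 1.15e-12), and at 24 h 9.76, 10.21, 10.74 and 10.79 against 11.57 to 12.15 (-1.45 ± 0.17, 8.00e-10). The groups did not overlap at either hour. At 50 mg/kg it was lower by 48 h (-0.78, 0.000166), and at 6 h both upper doses were lower by a similar amount (-0.59 and -0.57, adjusted p = 0.0387 and 0.0448). The 2 vehicle rats of that hour had 11.85 and 12.53, and without the higher of them these changes were -0.24 and -0.23 (adjusted p = 0.608 and 0.63). From 6 to 24 h the change at 150 mg/kg deepened by 0.88 (difference -0.88).

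Galactosamine at 400 mg/kg lowered Slc39a14 at 48 h to 9.61, 10.20, 10.20 and 11.01 against 11.58 to 12.05 (-1.48 ± 0.30, adjusted p = 6.11e-05) and at 24 h to 9.50, 9.88, 10.13 and 11.82 against 11.42 to 12.03 (-1.27 ± 0.30, 0.000724). A single rat of the 4 at 24 h lay within the vehicle range. With hybridisation day as a block the 48 h change was 0.04 (adjusted p = 0.972), so that its direction and its call were both lost. Monocrotaline lowered it early, at 6 h by 1.13 ± 0.14 at 300 mg/kg (change -1.13; 10.88 to 11.08 against 11.86 to 12.48, 1.56e-08) and by 0.90 at 50 mg/kg (change -0.90; 11.10 to 11.48, 1.89e-06). At 24 h the 50 mg/kg change was 0.97 above that at 6 h, and at 48 h the same dose gave the only called rise of Slc39a14 (0.47, adjusted p = 0.029), lost on leaving out any of 5 of its 8 rats (adjusted p up to 0.112) and with day as a block (0.114).

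The other decreases were -0.64 and -0.52 for N-nitrosomorpholine at 300 and 50 mg/kg and 6 h, -0.47 for diquat at 25 mg/kg and 6 h (26.3% of all genes called), -0.43 for 1,2-dichlorobenzene at 1500 mg/kg and 24 h, -0.40 for bromobenzene at 75 mg/kg and 6 h (16.7% called) and -0.35 at 250 mg/kg and 48 h. The last 4 of these were lost on leaving out any of 3 of 12, 6 of 8, 6 of 8 and 4 of 8 rats respectively (adjusted p up to 0.113, 0.172, 0.189 and 0.161). With day as a block both N-nitrosomorpholine decreases and both of bromobenzene were not called (adjusted p = 0.107, 0.249, 0.0962 and 0.106). In none of the 3 groups with Mt2A changes above 5 was Slc39a14 called in either direction by its brighter probe set. The changes were 0.18 in bromobenzene, 0.14 in monocrotaline and -0.22 in N-nitrosomorpholine rats, although the acute phase list rose there. The second probe set naming Slc39a14 correlated at 0.606 with the first over 74 groups, had its sign in 51 of them, and was called higher in 8 and lower in 12. Its values in the 3 groups with Mt2A changes above 5 are not given here. The mean of both sets was called higher in 4 groups and lower in 12.

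**Figure D5:**
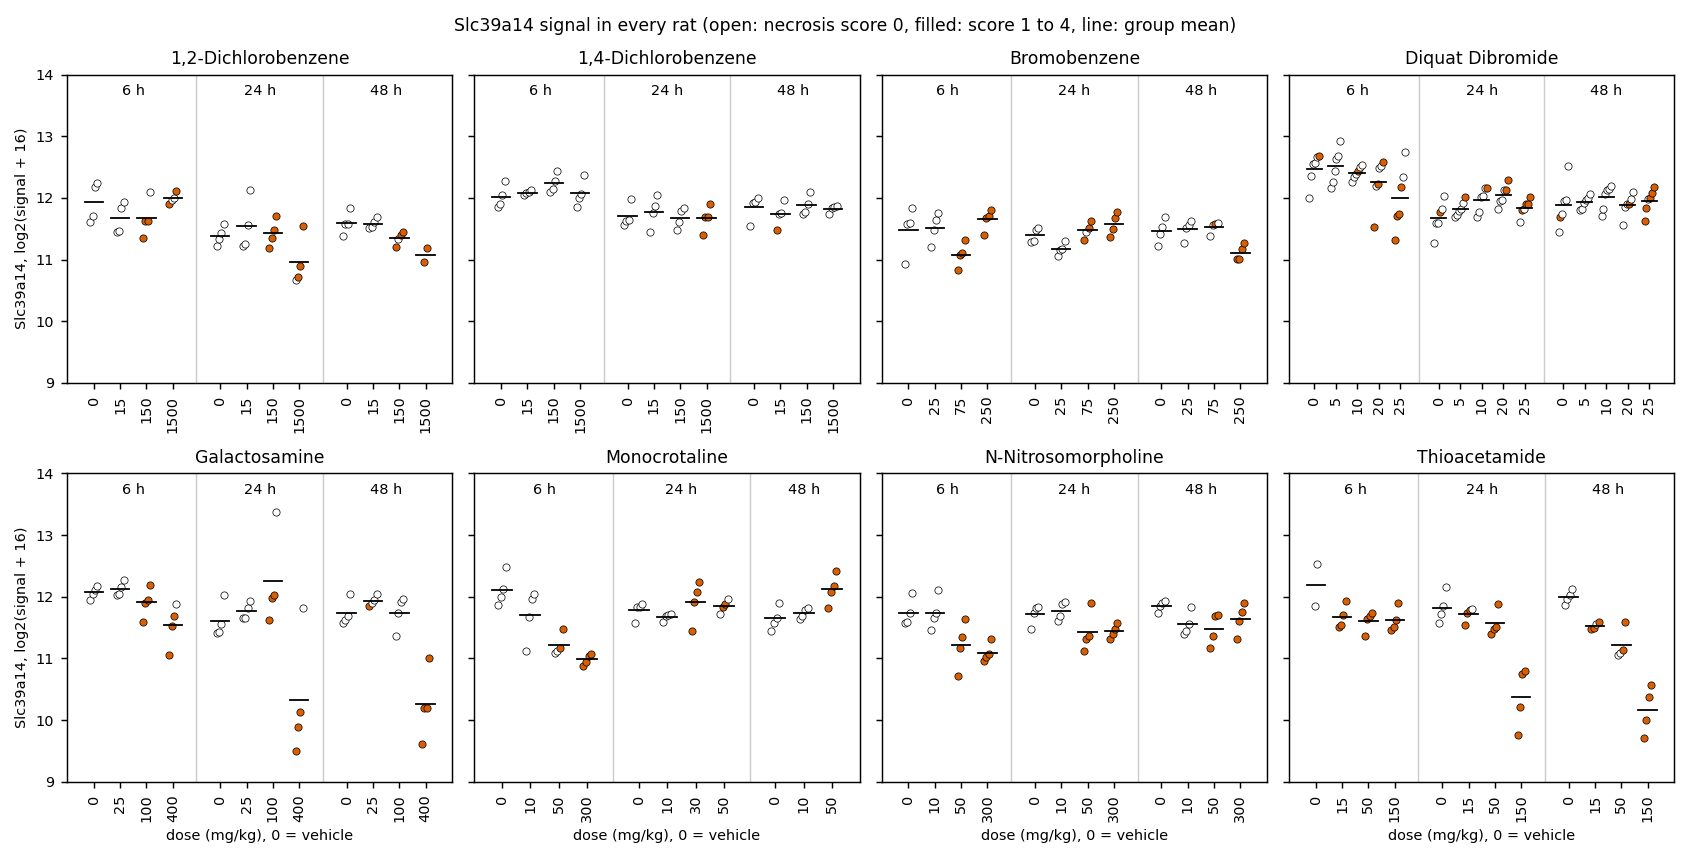
Slc39a14 log2 signal of every rat, by compound, hour and dose; each point is 1 rat and vehicle rats stand at dose 0. Thioacetamide rats at 150 mg/kg lay between 9.72 and 10.79 at 24 and 48 h, below all their vehicle rats, and 1 galactosamine rat at 100 mg/kg and 24 h had the highest value, 13.37.

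Hepatocyte genes fell beside Slc39a14 in some of these groups and not in others. In thioacetamide rats at 150 mg/kg and 48 h all 7 measured hepatocyte markers were lower, with a summed signal for hepatocytes of 169400 to 181600 against 375700 to 418300 in vehicle, and in galactosamine rats at 400 mg/kg and 48 h all 7 were lower (102200 to 199300 against 370100 to 378000). In galactosamine rats at 24 h 0 of 7 were called in either direction, with sums of 281200 to 382300 against 291400 to 329500. In monocrotaline rats at 300 mg/kg and 6 h 2 were higher and 0 lower, with sums of 388200 to 454300 against 336400 to 375700. Over all genes 21.4% were called lower in the thioacetamide group, 16.2% and 15% in the galactosamine groups at 48 and 24 h, and 20.1% in the monocrotaline group. Slc39a14 was called lower in all 4 groups, at 48 h with galactosamine only without day as a block.

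Slc30a1, the ZnT1 exporter, had the fewest calls of the 4 genes, 5 higher and 3 lower of 74, shares no larger than the 8.76% and 6.9% over all genes, and 6008 genes were called higher at least as often. It was called higher at all 3 doses of bromobenzene at 24 h, by 1.37 ± 0.34 at 25 mg/kg (7.67, 7.75, 7.83 and 8.51, adjusted p = 0.00832; 5.51% of all genes called), 1.34 at 75 mg/kg (7.81 to 8.01, 0.00288) and 0.97 at 250 mg/kg (6.96, 7.05, 8.04 and 8.13, 0.018). The 4 vehicle rats of this hour had 6.35, 6.42, 6.62 and 6.89, and their mean of 6.57 was the lowest of the 24 vehicle groups. The vehicle means of the other 7 compounds at 24 h lay between 7.99 and 8.98, and those of bromobenzene itself were 7.92 at 6 h and 7.29 at 48 h. Among rats hybridised on 1 shared day the 250 mg/kg change was 0.44. With day as a block the changes were 0.28 at 25 mg/kg, 0.25 at 75 mg/kg and 0.43 at 250 mg/kg, none of them called (adjusted p = 0.778, 0.717 and 0.216). Leaving out 1 rat took the call from the lowest dose (1.18, adjusted p = 0.0577) and from the highest (0.78, 0.114). The change at 250 mg/kg was 1.59 lower at 48 h than at 24 h (difference -1.59).

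Diquat raised Slc30a1 by 0.69 at 20 mg/kg and 6 h (adjusted p = 0.0439; 11.9% of genes called) and by 0.98 ± 0.24 at 25 mg/kg and 48 h (7.96, 8.69 as median and 8.96 against 6.90, 7.70 and 8.12, adjusted p = 0.00382; 8.58% called). In the second group 1 of the 6 dosed rats lay among the vehicle rats. Galactosamine at 400 mg/kg and 48 h lowered it by 0.80 (change -0.80; 7.11, 7.11, 8.14 and 8.30 against 8.04 to 9.00, 0.0182), and thioacetamide at 150 mg/kg by 0.47 at 24 h (change -0.47, 0.0492) and 0.49 at 48 h (change -0.49, 0.036). Except for diquat at 25 mg/kg and 48 h, each of these was lost on leaving out any of at least 4 of its rats, with adjusted p up to 0.158 for diquat at 20 mg/kg, 0.1 for galactosamine and 0.148 for thioacetamide at 48 h. Without the vehicle rat at 9.68 the thioacetamide change at 24 h was -0.23 (0.35). With day as a block the galactosamine and both thioacetamide decreases were not called either (-1.12, -0.19 and -0.22, adjusted p = 0.208, 0.747 and 0.698). Neither diquat rise could be fitted with day as a block, so whether they depend on day was not tested. Slc30a1 was not called in any of the 6 groups with Mt2A changes above 4 other than bromobenzene at 250 mg/kg.

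Of the differences between hours at the highest shared dose, 21 of 64 tests were called for the 4 genes, against 21.1% over all genes. Each gene had 16 tests, of which Mt2A accounted for 8 calls, Mtf1 for 7, Slc39a14 for 4 and Slc30a1 for 2. For Mt2A 6 were increases from 6 to 24 h and 2 were decreases from 24 to 48 h. Monocrotaline at 50 mg/kg was among the former, since its change moved from -1.08 to 1.24 (difference 2.32, with 24.2% of genes called). Its vehicle mean moved from 12.4 to 9.42, and vehicle Mt2A over all compounds differed by -3.07 between these hours. Each of the 6 increases therefore includes a drop of its own vehicle rats.

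The 4 genes did not move together. Over the 74 changes Mt2A correlated with Mtf1 at 0.446, with Slc39a14 at -0.143 and with Slc30a1 at 0.0353, and Slc39a14 correlated with Mtf1 at -0.387. Slc30a1 correlated at 0.256 with Slc39a14 and at 0.148 with Mtf1. The genes most like Mt2A were Pla2g12a (0.837), a secreted phospholipase, Ctsl (0.833), the lysosomal protease cathepsin L, Ptpn2 (0.819), a phosphatase that acts on STAT and JAK proteins, Nap1l1 (0.814) and Agtpbp1 (0.811). Closest to Slc39a14 were Apob (0.81), the core protein of hepatic lipoproteins, Slc41a2 (0.807), Ptpn3 (0.799), Rhobtb3 (0.797) and Hook1 (0.794). Tox4 (0.802), Polr3e (0.789), Abt1 (0.775), Samd8 (0.773) and Eif3j (0.771) came closest to Mtf1. For Slc30a1 the values were lower, Ireb2 (0.66), an iron regulatory protein, Ttc14 (0.578), Pi4k2b (0.563), Fut11 (0.557) and Pde12 (0.553). These contrasts share vehicle rats and the correlations are descriptions.

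Among other zinc genes the importers were called higher in 86 and lower in 87 of 888 tests over 12 measured genes (9.68% and 9.8%), and the exporters higher in 54 and lower in 44 of 666 over 9 genes (8.11% and 6.61%), close to the 8.76% and 6.9% of all genes. Single genes went far in 1 direction. Slc39a6 (ZIP6), an importer, was higher in 26 groups and lower in 0, by up to 3.48 ± 0.22 in N-nitrosomorpholine rats at 300 mg/kg and 48 h. Slc39a8 (ZIP8), the nearest relative of ZIP14, was lower in 29 and higher in 0, most in 1,2-dichlorobenzene rats at 1500 mg/kg and 24 h (-1.82 ± 0.10). Slc30a10, which is known as a manganese exporter of liver, was lower in 20 and higher in 0, most in galactosamine rats at 400 mg/kg and 48 h (-3.28 ± 0.36). Slc39a10 was higher in 18 and lower in 1, with its largest change of 2.02 in the same galactosamine group. Slc30a7, which loads zinc into the secretory pathway, was higher in 18 and lower in 3. Slc39a11 was divided, with 11 higher and 11 lower.

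Mt1, the other hepatic metallothionein, was read by a dim probe set and was called higher in 11 groups and lower in 0, most in 1,4-dichlorobenzene rats at 1500 mg/kg and 24 h (2.15 ± 0.48). A second set that names Mt1 together with other genes was left out. Mt1 and Mt2A transcripts are close in sequence, and hybridisation of the one to probes of the other was not tested. The 4 measured metallothioneins together were called higher in 36 and lower in 5 of 296 tests (12.2% and 1.69%), most of the rises being those of Mt2A.

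Copper genes, which share metallothionein as a ligand, were called lower in 148 and higher in 76 of 740 tests (20% and 10.3%), against 6.9% and 8.76% over all genes. Slc31a1, the copper importer, was lower in 31 groups and higher in 1, Cp (ceruloplasmin) lower in 30 and higher in 0, with its largest change in thioacetamide rats at 150 mg/kg and 48 h (-3.19 ± 0.09), and Cox17, a mitochondrial copper chaperone, higher in 24 and lower in 0. The acute phase list was called higher in 100 and lower in 59 of 814 tests (12.3% and 7.25%), with Stat3 higher in 13 groups and lower in 3, Il6st, the signalling receptor of interleukin-6, higher in 9 and lower in 12, and Fgb, a fibrinogen chain, higher in 3 and lower in 13. The list of glucocorticoid-induced genes and the receptor was called higher in 64 and lower in 93 of 666 tests (9.61% and 14%). Nr3c1, the receptor itself, made up 29 of the lower calls and 0 of the higher, Igfbp1 higher in 18 and lower in 3, and Sgk1 higher in 4 and lower in 17.

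Arrays were alike in most respects. Their median log2 signal ran from 6.53 to 7.78, probe sets with signals under 16 made up 4.24% to 18.2% of an array, and arrays within groups correlated at 0.847 or above (median 0.95), with 0 arrays identical. On 8 arrays at most 8% of probe sets lay under 16, among them 2 of 1,4-dichlorobenzene vehicle rats at 6 h and 1 of a diquat vehicle rat at 6 h. The 7 measured markers of hepatocytes summed to medians of 294400 to 466100 in the 24 vehicle groups, so the defining genes of the labelled tissue were present. Arrays were hybridised on 39 days, and 60 of the 74 contrasts could be fitted with day as a block. In that fit Mt2A was called higher in 13 groups, Slc30a1 in 0, Mtf1 in 10 and Slc39a14 lower in 5. Of the called changes that could be fitted, 13 of 19 kept their call for Mt2A, 8 of 11 for Mtf1, 5 of 11 for Slc39a14 and 0 of 6 for Slc30a1. None of the called Mt2A changes at 6 h could be fitted in this way.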

How the data were processed

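The deposited values were log2 signals of the MAS5 algorithm, which the authors scaled to a 2% trimmed mean of 500 on every array. The version of MAS5 was not among the sources read. They were analysed as log2(signal + 16), since signals under 16 vary mostly by noise, with no further normalization. Of 31099 probe sets (57 controls), 20826 had 1 gene symbol, 436 several and 9780 none; each of 14217 genes was read from its probe set with the highest mean signal, of which 14167 were found in the RefSeq annotation. For Mt2A and Slc30a1 this was the only set, and for 4525 genes there were several.

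Each array was 1 rat, so replicates are separate animals, and their number limits the precision. One limma fit per compound was made (version 3.58.1, eBayes with trend; R 4.3.3, with data.table at 1.17.8) and p values were adjusted by Benjamini-Hochberg over all genes of a contrast, 2-sided. Differences between isomers, doses and times were contrasts of contrasts in such fits, necrosis class was tested with group as a block over all arrays, and vehicle rats were compared between times with compound as a block. Methods were tested on simulated data. The 4 genes and the gene lists were chosen with earlier results of these data known.

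Named are the 4 genes in all contrasts, up to 6 further zinc genes and up to 3 genes of each other list with the most calls, and the 5 genes whose 74 changes correlate best with each of the 4; Mt1, Lcn2, Cox17, Slc39a4, A2m, Hamp, Socs3 and the vehicle changes of listed genes were added after their values were seen. Alternatives were pseudocounts 1 and 64, quantile normalization, median centring, the mean or each of a gene's probe sets, the brighter 7108 genes, a joint fit of all arrays, fits of 2 groups at a time, day of hybridisation as random or fixed block and within a day, leaving out each rat of a named contrast, each compound for necrosis, each vehicle, and 8 arrays with few dim probe sets. Rats were left out by their number within a group. Each such fit therefore also lacked the rats of that number in the other dosed, or the other vehicle, groups. Restricting the necrosis test to diquat was added after seeing the data.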

Additional observations from a re-analysis of the deposited data

Results flagged for a closer look

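The dose, time or isomer differences given here were tested and called; the others are rats that stood apart from their group, which chance alone gives in about 1 of 20 groups. Of 96 groups of 4 or 6 rats, 8 had such a rat for Mt2A, 5 for Slc30a1, 3 for Slc39a14 and 6 for Mtf1.

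For Mt2A the rat was the highest of its group in N-nitrosomorpholine rats at 50 mg/kg at 24 h (11.08) and at 48 h (13.395), in galactosamine rats at 100 mg/kg and 24 h (15.748) and in galactosamine rats at 400 mg/kg and 48 h (13.177). It was the lowest in 1,2-dichlorobenzene rats at 150 mg/kg and 6 h (14.594), N-nitrosomorpholine rats at 300 mg/kg and 24 h (11.62), galactosamine rats at 400 mg/kg and 24 h (8.916) and diquat rats at 20 mg/kg and 6 h (11.865). The galactosamine rat at 15.748 was scored free of necrosis, while its 3 group mates were scored 1 and had Mt2A of 9.50 to 10.15. It also had the highest Slc39a14 of all rats in the series (13.37 against 11.62 to 12.03 in the mates), with A2m, an acute phase protein of rat liver, at 15.46 against 7.74 to 8.86, Lcn2 at 9.92 against 5.14 to 6.03 and the neutrophil gene S100a8 at 9.11 against 6.02 to 6.75. Its Slc30a1 (8.80) and Mtf1 (9.61) lay near theirs (8.38 to 8.96 and 9.68 to 9.85), and all 4 arrays were hybridised on 1 day.

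For Slc30a1 the rat was high in 1,2-dichlorobenzene vehicle rats at 6 h (8.557) and low in N-nitrosomorpholine vehicle rats at 24 h (7.817), galactosamine rats at 25 mg/kg and 24 h (7.863) and diquat rats at 24 h given 5 mg/kg (7.865) or 25 mg/kg (7.312). For Slc39a14 it was high in thioacetamide rats at 50 mg/kg and 48 h (11.598) and low in bromobenzene rats at 75 mg/kg and 48 h (11.378) and monocrotaline vehicle rats at 24 h (11.569). For Mtf1 it was high in 1,4-dichlorobenzene vehicle rats at 48 h (9.717), N-nitrosomorpholine vehicle rats at 6 h (10.163) and monocrotaline rats at 24 h given 10 mg/kg (9.893) or 30 mg/kg (10.882), and low in bromobenzene rats at 250 mg/kg and 6 h (9.196) and at 25 mg/kg and 48 h (9.177).

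The effect of 1,2-dichlorobenzene exceeded that of 1,4-dichlorobenzene by 3.129 for Mt2A at 150 mg/kg and 24 h and by 3.544 at 1500 mg/kg and 48 h. For Mtf1 it did so by 0.525 at 150 mg/kg and 24 h, 1.326 at 1500 mg/kg and 24 h and 0.5236 at 1500 mg/kg and 48 h.

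Between 6 and 24 h the Mt2A change grew by 4.19 with 1,2-dichlorobenzene, 3.244 with 1,4-dichlorobenzene, 3.616 with bromobenzene, 2.319 with monocrotaline at 50 mg/kg, 4.06 with N-nitrosomorpholine and 1.701 with thioacetamide, each at the highest shared dose. Between 24 and 48 h it differed by -3.805 with 1,4-dichlorobenzene and -3.074 with bromobenzene. Vehicle Mt2A differed by -3.07 between 6 and 24 h, and each Mt2A difference over those hours includes the drop of its vehicle rats. The Mtf1 change differed between 6 and 24 h by 1.409 with 1,2-dichlorobenzene, 0.7572 with bromobenzene, 1.395 with galactosamine, -0.5417 with monocrotaline and 0.5983 with thioacetamide, and between 24 and 48 h by -0.7942 with 1,2-dichlorobenzene and -0.6011 with N-nitrosomorpholine. For Slc30a1 it differed by -1.586 between 24 and 48 h with bromobenzene and by -0.8488 between 6 and 24 h with thioacetamide. For Slc39a14 it differed by -0.5272 between 24 and 48 h with bromobenzene, and between 6 and 24 h by 0.6312 with diquat, 0.9726 with monocrotaline and -0.8768 with thioacetamide.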

How the results depend on the processing

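No paired analysis was possible because the labels give no replicate numbers shared between groups. With hybridisation day as a fixed block, which 60 of 74 contrasts and 9 isomer comparisons allowed, the counts were 13 higher (from 23) and 0 lower (from 1) for Mt2A, 0 higher (from 5) for Slc30a1, 0 higher (from 1) and 5 lower (from 15) for Slc39a14, and 3 isomer calls (from 5). Calls were also lost where the fit was possible (13 of 19 kept for Mt2A, 8 of 11 for Mtf1, 5 of 11 for Slc39a14, 0 of 6 for Slc30a1), and the cause was not tested. The isomer calls lost were those of Mt2A and Mtf1 at 150 mg/kg and 24 h. With day as a random block Mt2A was lower in 0 groups and Slc30a1 higher in 3. Mt2A was lower in 0 groups with median centring, with the mean of probe sets and with all arrays in 1 fit, in 2 among brighter genes and in 3 with only the groups compared, a setting in which Slc30a1 was lower in 1 group (from 3). Slc39a14 was higher in 4 groups with median centring and in 4 with the mean of probe sets, and in 8 by its other probe set. Mtf1 was higher in 8 groups with the mean of probe sets and in 3 and 6 by its other probe sets (from 14). It was lower in 1 group (from 0) with quantile normalization, median centring, the mean of probe sets, all arrays in 1 fit or after removal of 8 arrays with few dim probe sets, and in 2 and 1 by its other probe sets. Quantile normalization gave 3 isomer calls. Without diquat the Mt2A necrosis difference was -0.052 (adjusted p = 0.922). Rats were numbered within groups, and 1 number at a time was left out of all dosed or all vehicle groups together. This gave 20 to 26 higher and 0 to 1 lower calls for Mt2A and 3 to 6 and 0 to 3 for Slc30a1. It gave 0 to 1 and 11 to 15 for Slc39a14, 12 to 16 and 0 to 1 for Mtf1, and 3 to 5 isomer calls.

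Reversed changes were Slc39a14 in galactosamine rats at 400 mg/kg and 48 h with day as a fixed block (0.042) and in bromobenzene rats at 250 mg/kg and 48 h by the other probe set (0.20). For Mtf1 they were monocrotaline at 300 mg/kg and 6 h with the mean of probe sets (-0.14), 1,2-dichlorobenzene at 1500 mg/kg and 48 h (-0.83) and bromobenzene at 250 mg/kg and 24 h (-0.42) by 1 other probe set, and monocrotaline at 300 (-0.91) and 50 mg/kg (-0.044) and 6 h and N-nitrosomorpholine at 50 mg/kg at 24 h (-0.0036) and 6 h (-0.23) by the other. The cause was not tested. Of the 62 called changes, 21 lost their call without at least 1 rat (6 of 24 for Mt2A, 2 of 14 for Mtf1, 7 of 16 for Slc39a14 and 6 of 8 for Slc30a1), and 0 reversed when a rat was left out. For 12 called changes a shared day held only some of the rats of the contrast. All 12 kept their direction among those rats, without a test. Most of these values rested on 1 dosed or 1 vehicle rat. Median centring moved the median of all genes by over 0.1 in 25 contrasts (-0.254 to 0.315) and quantile normalization in 3; 55.9% of calls were higher in the main setting and with median centring, and 53% with quantile normalization.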

Other observations

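Slc39a4 (ZIP4), the importer known for intestinal zinc uptake, was called higher in 5 groups and lower in 13, most in thioacetamide rats at 150 mg/kg and 48 h (-2.47 ± 0.15), the group with the largest decrease of Slc39a14. In vehicle rats it was 0.77 higher at 24 h than at 6 h, as were Slc39a10 by 0.61 and Slc39a11 by 0.50, while Mt2A and Slc39a14 were lower. Hamp, which encodes the iron hormone hepcidin, was lower by 1.31 on the log2 scale (change -1.31) over that interval and higher by 1.55 between 24 and 48 h.

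An Mt2A signal of at least 14 was reached by 36 of 108 dosed rats and 8 of 32 vehicle rats at 6 h. At 24 h 26 of 108 dosed rats reached it and at 48 h 7 of 102, against 0 of 34 vehicle rats at each of these hours. Igfbp1, a fasting- and stress-responsive gene of hepatocytes, changed by 6.39 ± 0.41 in thioacetamide rats at 150 mg/kg and 6 h, where Socs3 changed by 3.02 ± 0.35 and Mt2A by 2.14.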
